A study of Mus musculus with 12 samples.

Results

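Transcript levels of 33 genes of cholesterol synthesis, sterol sensing, intracellular sterol transport and storage, and sterol export were followed in SCC7 mouse squamous carcinoma cells kept for 24 h in medium conditioned by bone-marrow-derived macrophages. The genes were taken by name from pathway knowledge, with earlier results of these data known. All 33 were found among the 55487 genes of the count table. Of these, 32 had enough counts to be tested, with Nr1h3 the exception. The cells, of 1 line with a wild-type genotype label, received 1 of 4 media, with 3 libraries for each. TAM CM came from macrophages kept in medium of which 75% had been conditioned by SCC7 cells, M2 CM from macrophages given 20 ng/ml IL-4, M1 CM from macrophages given 20 ng/ml IFN-γ, and M0 CM from macrophages given neither. M0 CM was the control for the other media. The sources used here do not say whether cytokine or SCC7 medium was removed before collection. Products of the macrophages and any cytokine that remained cannot be told apart in M1 CM or M2 CM. No SCC7 medium without macrophages was analysed here, so products of the macrophages and what remained of the SCC7 medium cannot be told apart in TAM CM.

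Cells build cholesterol from acetyl-CoA through mevalonate, farnesyl diphosphate and squalene. The genes for these enzymes are switched on by SREBP2, a transcription factor held in the endoplasmic reticulum by SCAP and the INSIG proteins while sterols are plentiful, and released when sterols run low. Its relative SREBP1 acts mainly on fatty acid genes. Surplus cholesterol is esterified by SOAT1 for storage or exported by ABCA1 and ABCG1, whose genes are switched on by the oxysterol receptors LXRα and LXRβ. Tumour cells can make their own cholesterol or take it up from lipoproteins in the medium.

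Library totals ran from 18996937 to 22596630 counts, and values below are CPM (counts divided by the library total and scaled up by a fixed factor) on TMM-scaled library sizes unless another scale is named. Errors after ± are SDs over 3 libraries for CPM and standard errors for log2 fold changes. The labels do not say whether the 3 libraries of a medium were separate cultures, so the p-values measure the spread between these libraries alone, which may be technical. The cell type label of the third M2 CM library names a melanoma, while its cell line label is SCC7 like the others. Melanocyte markers, 7 in all, summed to 11 to 12.8 CPM in TAM CM, 5.57 to 7.34 in M2 CM, 9.81 to 13 in M1 CM and 7.21 to 9.31 in M0 CM, with 6 of the 7 under 1 CPM in each medium. The 8 epithelial and keratinocyte markers gave mixed values for the squamous label. Krt8 and Krt18, keratins of simple epithelium, were present in every medium. Krt8 averaged 63.6 ± 2.27 CPM in TAM CM and 453 ± 20.5 in M2 CM. It averaged 129 ± 1.52 CPM in M1 CM and 267 ± 8.57 in M0 CM. Krt5, Krt14, Krt6a, Epcam and Cdh1 each averaged under 1 CPM in every medium. Trp63, the last of the 8, averaged under 1 CPM in TAM CM and M1 CM, but not in M2 CM and M0 CM. The summed level of 15 macrophage markers was 41.7 to 51.0 CPM in TAM CM, 22.7 to 25.2 in M2 CM, 34.9 to 40.9 in M1 CM and 23.4 to 24.6 in M0 CM, most of it Cd14. C1qa, C1qb, C1qc and Tyrobp had 0 counts in all 12 libraries.

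After TAM CM the synthesis enzymes measured here were low at every step. All 18 enzyme genes were called lower in TAM CM than in M0 CM, beside 34.9% of all tested genes. Their summed level was 566 ± 5.15 CPM in TAM CM and 2009 ± 49.9 CPM in M0 CM (SD, n = 3 each), or 28.2% of the M0 CM level. After M1 CM 14 of the 18 were called lower, by smaller amounts, beside 25.6% of all tested genes. The sum was 1507 ± 51.1 CPM, 75.0% of M0 CM. After M2 CM the sum was 2052 ± 49.7 CPM, 102% of M0 CM. Each value is a share of its library, so a change of total RNA per cell would not be seen, and fewer cells with a transcript and less of it per cell cannot be told apart.

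Over all 32 tested genes, 2 were higher and 26 lower in TAM CM than in M0 CM at an adjusted p under 0.05 in edgeR's quasi-likelihood test, where 35.1% of all 14509 tested genes were called higher and 34.9% lower. The median log2 fold change of the 32 was -1.52, beside 0.00 over all tested genes. A fall of at least 2-fold was called for 22 of them and for 9.93% of all tested genes, and a rise of at least 2-fold for 2 of them and for 9.07% of all. Against M0 CM, M1 CM had 6 of the 32 higher and 20 lower (27.7% and 25.6% of all genes), with a median of -0.24. M2 CM had 6 higher and 9 lower (21% and 18.5% of all genes), with a median of -0.02. The 3 comparisons share the M0 CM libraries, so their values are set side by side and the sharing of calls between them is not read as a result.

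**Figure D1:**
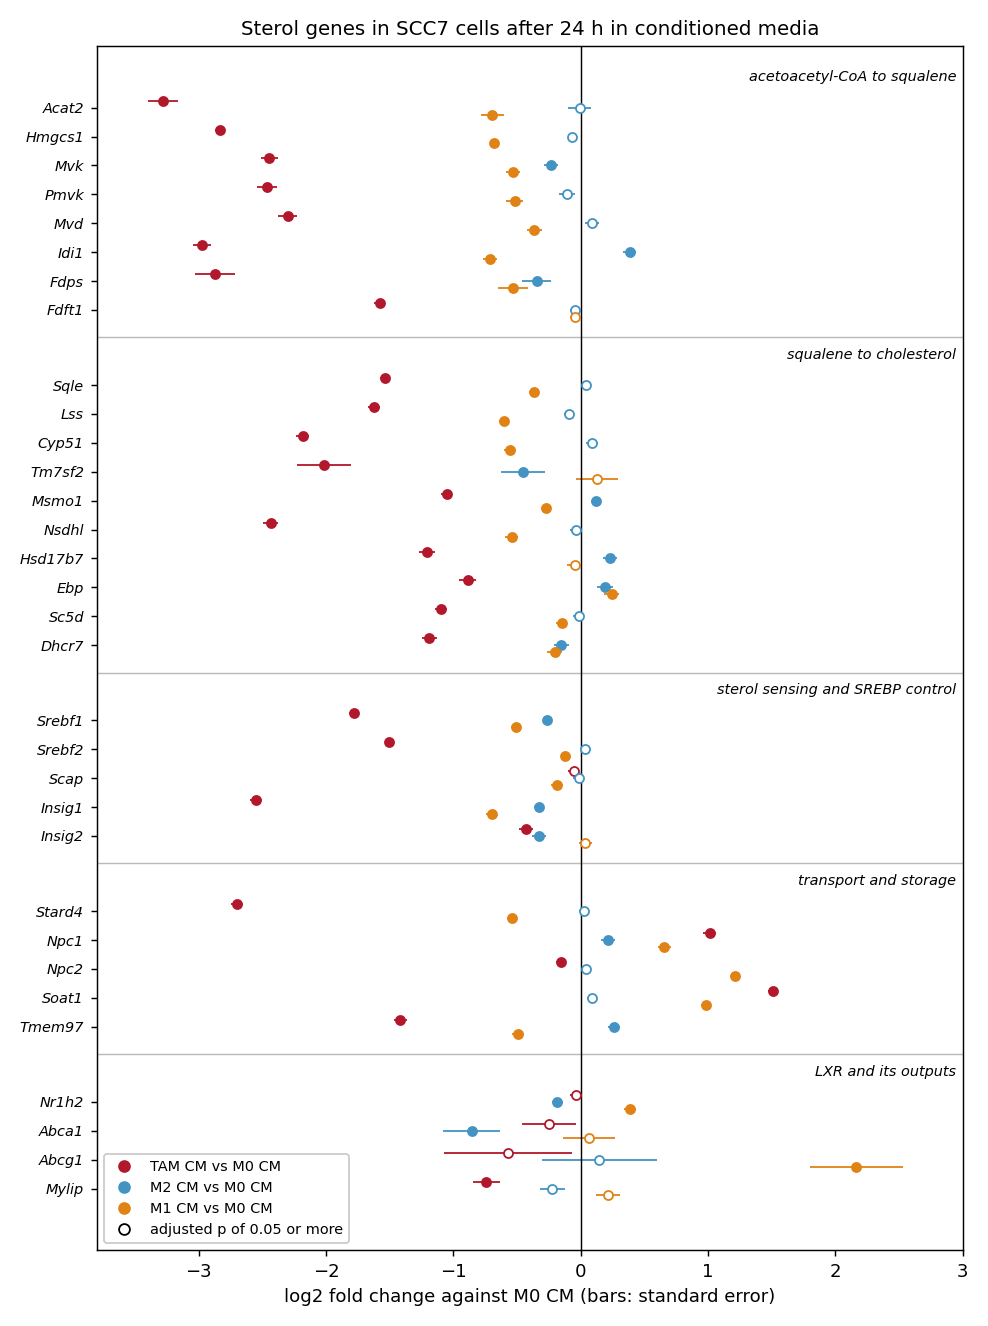
Log2 fold change of the 32 tested genes against M0 CM (x axis; bars are standard errors), in pathway order from top to bottom, for TAM CM, M2 CM and M1 CM; filled points passed an adjusted p under 0.05 and open points did not. The TAM CM points of the 18 enzymes lie between -3.28 and -0.89, while Npc1 and Soat1 lie above 0.

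The promoters of the genes were searched because SREBP2 works with NF-Y and Sp1 at its targets. RefSeq windows of 300 bases (250 before and 50 after a start site, build GRCm38.p6) were matched for 27 of the 33 genes. The sterol regulatory element core TCACNCCA was searched on both strands and found for Hmgcs1, Msmo1 and Srebf2, which is 11.1% of the 27 genes, and in 4.36% of all 32851 windows. The stricter TCACCCCA was found for 2 of the 27 genes (7.41%) and in 1.56% of all windows. CCAAT, the NF-Y box, was found for 22 of the 27 genes, among them 14 of the 15 enzymes matched, and in 37.4% of all windows. GGGCGG, the Sp1 box, was found for 24 of the 27 genes and in 35.7% of all windows. Some genes have several windows, and counted by window TCACNCCA was in 8.33%, TCACCCCA in 5.56%, CCAAT in 63.9% and GGGCGG in 77.8% of the 36 windows of these genes. AGGTCA repeated after any 4 bases, an exact form of the LXR repeat, was found for 0 of the 27 genes and in 0.0152% of all windows. An exact match this rare cannot show whether these genes have or lack LXR sites, and Abcg1 had no window. The matches of TCACNCCA, CCAAT and GGGCGG did not overlap each other in these windows. A match is a match of letters, not a measured site. The 3 windows with the TCACNCCA core are given below, with that of Soat1, which was higher in TAM CM. Of the 15 matched enzymes, all lower in TAM CM, 2 had this core, so its absence does not set Soat1 apart. Each is read 5′ to 3′ on the gene's own strand, and capitals mark the sterol regulatory core (read as written in these windows) and the NF-Y box (read as ATTGG where it lies on the other strand).
Hmgcs1: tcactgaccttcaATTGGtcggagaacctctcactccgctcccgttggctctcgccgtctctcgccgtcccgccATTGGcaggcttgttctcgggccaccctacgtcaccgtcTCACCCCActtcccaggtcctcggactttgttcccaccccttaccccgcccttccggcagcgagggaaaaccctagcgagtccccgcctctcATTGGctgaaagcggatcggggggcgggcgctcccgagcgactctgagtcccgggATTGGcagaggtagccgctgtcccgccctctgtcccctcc
Msmo1: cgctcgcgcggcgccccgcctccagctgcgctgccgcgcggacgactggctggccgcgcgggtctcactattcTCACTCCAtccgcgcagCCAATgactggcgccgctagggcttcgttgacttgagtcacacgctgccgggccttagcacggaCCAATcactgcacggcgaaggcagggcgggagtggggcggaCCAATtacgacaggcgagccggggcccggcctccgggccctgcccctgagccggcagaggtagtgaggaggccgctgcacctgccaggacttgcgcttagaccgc
Srebf2: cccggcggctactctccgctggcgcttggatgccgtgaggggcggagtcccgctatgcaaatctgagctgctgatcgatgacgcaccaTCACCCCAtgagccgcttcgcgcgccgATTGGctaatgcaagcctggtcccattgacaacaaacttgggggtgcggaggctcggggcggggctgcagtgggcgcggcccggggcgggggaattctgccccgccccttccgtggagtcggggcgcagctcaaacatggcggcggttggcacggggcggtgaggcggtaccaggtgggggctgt
Soat1: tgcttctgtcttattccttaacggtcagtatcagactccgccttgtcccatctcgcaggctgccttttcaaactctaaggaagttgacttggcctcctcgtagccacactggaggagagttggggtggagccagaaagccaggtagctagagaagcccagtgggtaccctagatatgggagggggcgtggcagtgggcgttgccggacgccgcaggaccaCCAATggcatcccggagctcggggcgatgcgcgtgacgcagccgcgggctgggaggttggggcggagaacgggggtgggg
In the Hmgcs1 window (chr13:119690101-119690400, + strand) the core starts 137 bases before the start site and 4 CCAAT boxes were found, the nearest upstream one 45 bases before it. In the Msmo1 window (chr8:64733529-64733828, - strand) the core starts 177 bases before the start and a CCAAT box follows it at 160. In the Srebf2 window (chr15:82147019-82147318, + strand) the core starts at 162 and a CCAAT box at 135 bases before the start. The Soat1 window (chr1:156474279-156474578, - strand) holds 1 CCAAT box, 30 bases before the start, and no TCACNCCA.

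The question put by TAM CM against M0 CM is how SCC7 cells respond to medium of macrophages exposed to SCC7 products. That medium includes whatever remained of the SCC7 medium. The 8 enzymes from acetoacetyl-CoA to squalene fell most, with log2 fold changes from -3.28 to -1.58 and a median of -2.65, and their summed level was 17.7% of that in M0 CM. Acat2, the cytosolic thiolase that makes acetoacetyl-CoA, had 16.9, 14.1 and 16.7 CPM in TAM CM, against 153, 158 and 149.9 in M0 CM. The gap between the media was many times the spread within them, and the fall was 9.72-fold (log2 fold change -3.28 ± 0.12, SE; edgeR adjusted p = 3.14e-09). Hmgcs1 (ENSMUSG00000093930, mm10 chr13:119690379-119708260, + strand), which encodes HMG-CoA synthase, had 32.1, 33.4 and 32.0 CPM in TAM CM, against 236, 232 and 227 in M0 CM. All 3 TAM CM libraries were far below all 3 M0 CM libraries, a 7.11-fold fall (log2 fold change -2.83 ± 0.04; edgeR adjusted p = 1.16e-45). Idi1, the isomerase that makes dimethylallyl diphosphate, had 12.8, 11.5 and 11.6 CPM in TAM CM, against 93.8, 97.2 and 91.2 in M0 CM. The fall was 7.86-fold (log2 fold change -2.98 ± 0.07; edgeR adjusted p = 2.11e-28), and the libraries did not overlap.

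Fdps, the synthase of farnesyl diphosphate, was measured at a low level, with 1.91, 1.13 and 1.88 CPM in TAM CM, against 11.7, 12.8 and 11.1 in M0 CM, a log2 fold change of -2.87 ± 0.16 (edgeR adjusted p = 5.87e-22). Its level is uncertain because 26.7% of its exon bases are shared, on the same strand, with Gm43738, which had 0 counts in all 4 media, and the sources used here do not say how reads in shared exons were counted. The middle of the mevalonate route moved the same way. Mevalonate kinase, Mvk, averaged 9.63 ± 0.487 CPM in TAM CM and 52.6 ± 2.66 in M0 CM (SD, n = 3 each, log2 fold change -2.44 ± 0.07). Phosphomevalonate kinase, Pmvk, averaged 7.06 ± 0.424 CPM in TAM CM and 38.9 ± 1.98 in M0 CM (log2 fold change -2.46 ± 0.08). Mevalonate diphosphate decarboxylase, Mvd, averaged 9.48 ± 0.480 CPM in TAM CM and 46.6 ± 3.29 in M0 CM (log2 fold change -2.30 ± 0.07). Fdft1, the squalene synthase that commits farnesyl diphosphate to sterols, fell least of the 8, with 49.7, 45.7 and 49.8 CPM in TAM CM, against 143, 148 and 142 in M0 CM (log2 fold change -1.58 ± 0.04). Fdft1 shares 18.3% of its exon bases with Ctsb, on the opposite strand. Ctsb itself averaged 1520 ± 86.3 CPM in TAM CM and 761 ± 15.9 CPM in M0 CM (log2 fold change 0.99). Without a stated strand setting, reads of Ctsb in the shared stretch cannot be told from those of Fdft1.

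The 10 enzymes from squalene to cholesterol were also all lower in TAM CM, with log2 fold changes from -2.43 to -0.89 and a median of -1.37, and a summed level that was 34.7% of that in M0 CM. Nsdhl, a sterol dehydrogenase of the demethylation complex, had 13.4, 16.0 and 14.4 CPM in TAM CM, against 78.3, 81.5 and 77.5 in M0 CM. That is a 5.4-fold fall with no overlap (log2 fold change -2.43 ± 0.06; edgeR adjusted p = 1.83e-36). Cyp51, the lanosterol demethylase, had 58.7, 58.8 and 56.2 CPM in TAM CM, against 259, 275 and 255 in M0 CM, and its log2 fold change was -2.18 ± 0.05 (edgeR adjusted p = 2.88e-21). Lss, which closes the ring system to form lanosterol, had 40.7, 40.8 and 40.5 CPM in TAM CM, against 128, 129 and 119 in M0 CM. Its TAM CM libraries were nearly equal to each other, and the log2 fold change was -1.62 ± 0.05 (edgeR adjusted p = 1.42e-33). Sqle, the squalene epoxidase and a rate-limiting step of the pathway, averaged 125 ± 1.25 CPM in TAM CM and 362 ± 12.8 in M0 CM, a 2.9-fold fall (log2 fold change -1.54 ± 0.04).

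The remaining late enzymes fell by 1.85-fold to 4.05-fold. Tm7sf2, a sterol reductase that LBR can stand in for, was near the lower limit of measurement, at 1.15, 0.994 and 1.32 CPM in TAM CM, against 4.25, 4.87 and 4.92 in M0 CM (log2 fold change -2.02 ± 0.21). Msmo1, the methylsterol oxidase, averaged 86.8 ± 3.90 CPM in TAM CM and 179.9 ± 5.26 in M0 CM (log2 fold change -1.05 ± 0.04). Hsd17b7, the ketosteroid reductase of the same complex, averaged 21.4 ± 1.98 CPM in TAM CM and 49.6 ± 2.88 in M0 CM (log2 fold change -1.21 ± 0.06). The falls at the last steps of the route were among the smaller ones. The desaturase Sc5d had a log2 fold change of -1.10 ± 0.05, the reductase Dhcr7 one of -1.19 ± 0.06, and the sterol isomerase Ebp one of -0.89 ± 0.07. Ebp had 18.1, 19.9 and 19.8 CPM in TAM CM, against 35.2, 35.2 and 36.5 in M0 CM, so that even the smallest of the 18 falls left the libraries apart.

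**Figure D2:**
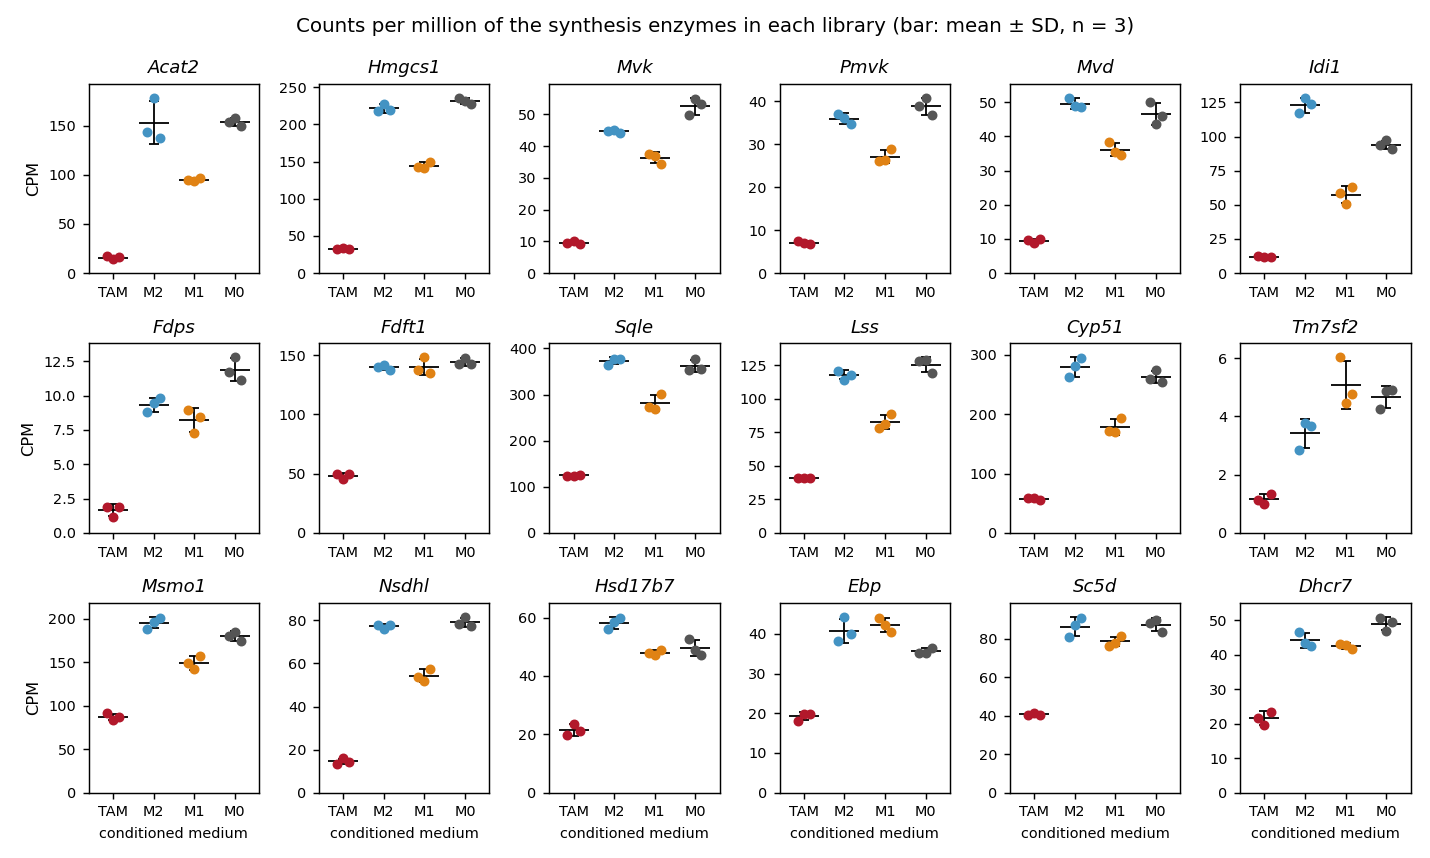
CPM (y axes, each starting at 0) of the 18 synthesis enzymes in each of the 12 libraries, in pathway order, by conditioned medium (x axes); points are libraries and bars are the mean ± SD of 3. The TAM CM points lie below all others in every panel, and the M1 CM points lie below those of M0 CM in most.

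Sterol control genes fell with the enzymes, except for SCAP. Insig1 (ENSMUSG00000045294, mm10 chr5:28071363-28078662, + strand), an SREBP target whose protein retains SCAP and SREBP in the endoplasmic reticulum, had 26.0, 23.4 and 26.2 CPM in TAM CM, against 143, 154 and 144 in M0 CM. It fell 5.85-fold with no overlap (log2 fold change -2.55 ± 0.05; edgeR adjusted p = 1.74e-40). Insig2, which does the same work but is not driven by SREBP in the same way, had 37.4, 35.2 and 38.1 CPM in TAM CM, against 49.5, 51.0 and 48.6 in M0 CM. Its fall was far smaller (log2 fold change -0.43 ± 0.05; edgeR adjusted p = 6.45e-10). Srebf2, which encodes SREBP2, had 242, 237 and 245 CPM in TAM CM, against 670.1, 704 and 677 in M0 CM. It fell 2.83-fold (log2 fold change -1.50 ± 0.03; edgeR adjusted p = 1.1e-38). Srebf1, which encodes both forms of SREBP1, had 53.4, 50.4 and 50.4 CPM in TAM CM, against 171, 176 and 181 in M0 CM, a 3.43-fold fall (log2 fold change -1.78 ± 0.04; edgeR adjusted p = 9.83e-38). Counts per gene do not separate the forms of SREBP1. Scap, the sterol-sensing escort of both SREBPs, had 85.3, 79.4 and 88.6 CPM in TAM CM, against 86.1, 85.8 and 90.7 in M0 CM, and these overlapped (log2 fold change -0.05 ± 0.04; edgeR adjusted p = 0.27).

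The 5 transport and storage genes divided. Soat1 (ENSMUSG00000026600, mm10 chr1:156424525-156474331, - strand), the enzyme that esterifies cholesterol for storage in lipid droplets, had 219, 219.7 and 228 CPM in TAM CM, against 77.7, 77.7 and 78.6 in M0 CM. Its TAM CM libraries were all higher, by 2.85-fold (log2 fold change 1.51 ± 0.04; edgeR adjusted p = 8.01e-37). Npc1, the membrane protein that releases cholesterol from lysosomes, had 79.6, 73.2 and 76.4 CPM in TAM CM, against 36.7, 40.4 and 36.6 in M0 CM. It rose 2.02-fold (log2 fold change 1.01 ± 0.05; edgeR adjusted p = 1.88e-23). Its neighbour Rmc1 shares 4.52% of the Npc1 exon bases on the opposite strand and also rose (log2 fold change 0.78). Npc2, the soluble partner that hands cholesterol to NPC1, had 159, 152 and 155 CPM in TAM CM, against 176, 171 and 172 in M0 CM, and fell slightly (log2 fold change -0.16 ± 0.04; edgeR adjusted p = 0.000141).

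The other 2 transport genes moved with the enzymes. Stard4, an SREBP target that carries cholesterol between membranes, had 22.1, 21.9 and 23.7 CPM in TAM CM, against 146, 144 and 149 in M0 CM. It fell 6.5-fold (log2 fold change -2.70 ± 0.05; edgeR adjusted p = 2.59e-42), within the range of the early enzymes. Tmem97, which binds NPC1 and lowers its protein level in human cells, had 30.3, 30.3 and 29.8 CPM in TAM CM, against 79.8, 82.1 and 79.7 in M0 CM (log2 fold change -1.42 ± 0.05; edgeR adjusted p = 6.33e-29). The libraries of the 2 media were well apart for both genes. Of the 15 macrophage markers, 5 had enough counts to be tested. In TAM CM against M0 CM, 1 was called higher and 1 lower (35.1% and 34.9% of all genes). The marker Cd14 averaged 40.9 ± 3.80 CPM in TAM CM and 17.3 ± 0.898 in M0 CM. In TAM CM 12 of the 15 macrophage markers, and in M0 CM 13, were under 1 CPM. The part of such transcripts in the transport genes was not tested.

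Of the 4 tested LXR genes, 0 were called higher and 1 lower in TAM CM (35.1% and 34.9% of all genes). With 4 genes these counts are not set apart from those shares. Nr1h2, which encodes LXRβ, had 80.7, 74.2 and 76.0 CPM in TAM CM, against 76.4, 78.2 and 81.8 in M0 CM, which overlapped (log2 fold change -0.04 ± 0.05; edgeR adjusted p = 0.495). Nr1h3, which encodes LXRα, had 1 to 9 counts in each of the 12 libraries and was not tested. The sterol exporter Abca1 had 3.17, 2.21 and 2.44 CPM in TAM CM, against 3.06, 3.73 and 2.46 in M0 CM, and was not called (log2 fold change -0.25 ± 0.21; edgeR adjusted p = 0.301). The exporter Abcg1 had 5 to 8 counts a library in TAM CM and 5 to 14 in M0 CM, and a difference was not detectable at this depth. Mylip, an LXR-induced ubiquitin ligase that degrades lipoprotein receptors, was the LXR gene called, with 8.02, 9.85 and 10.3 CPM in TAM CM, against 14.9, 16.4 and 16.1 in M0 CM (log2 fold change -0.74 ± 0.11; edgeR adjusted p = 2.08e-08).

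**Figure D3:**
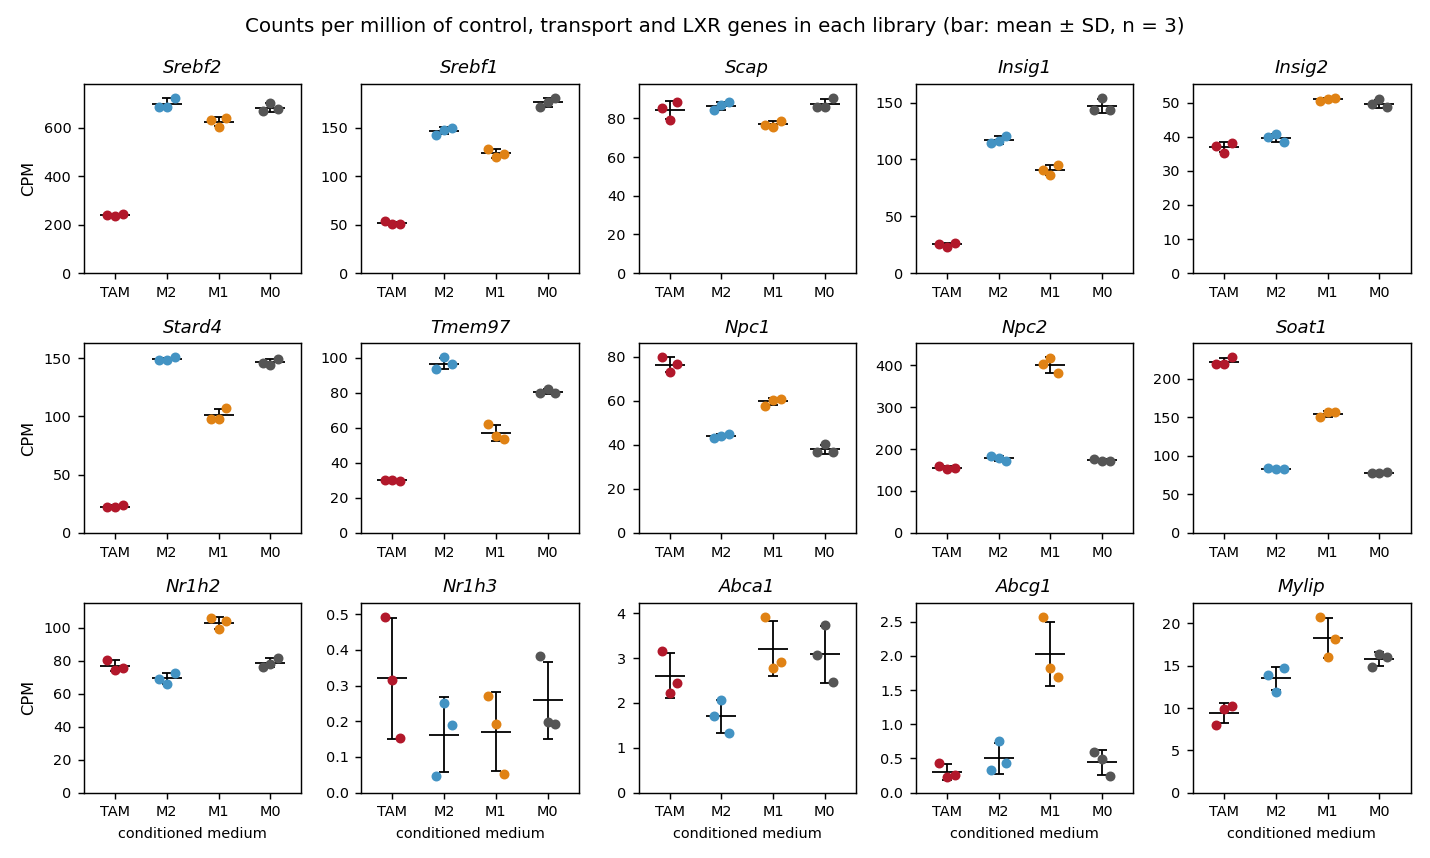
CPM (y axes, each starting at 0) of the 15 genes of sterol control, transport and storage, and LXR in each library, by conditioned medium (x axes); points are libraries and bars are the mean ± SD of 3. Stard4 and Insig1 are lowest in TAM CM, Soat1 and Npc1 are highest there, and Npc2 and Abcg1 are highest in M1 CM.

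M1 CM against M0 CM asks what medium of IFN-γ treated macrophages adds, together with any IFN-γ left in it. The early enzymes fell by less than after TAM CM. Of the 8, 7 were called lower, beside 25.6% of all tested genes, with log2 fold changes from -0.71 to -0.36. The group stood at 70.5% of its M0 CM sum. Idi1 had 58.4, 50.9 and 63.3 CPM in M1 CM, against 93.8, 97.2 and 91.2 in M0 CM (log2 fold change -0.71 ± 0.05; edgeR adjusted p = 2.45e-13). Hmgcs1 had 143, 141 and 149 CPM in M1 CM, against 236, 232 and 227 in M0 CM (log2 fold change -0.68 ± 0.04), and Acat2 had 94.9, 93.6 and 96.9 CPM in M1 CM, against 153, 158 and 149.9 in M0 CM (log2 fold change -0.69 ± 0.09). In all 3 genes the M1 CM libraries lay between those of TAM CM and those of M0 CM without overlap. Fdft1 was not called, at 138, 148 and 135 CPM in M1 CM, against 143, 148 and 142 in M0 CM (log2 fold change -0.04 ± 0.04; edgeR adjusted p = 0.37).

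Of the 10 late enzymes, 7 were called lower in M1 CM, beside 25.6% of all tested genes. Lss fell most of the 10, with 78.3, 81.5 and 88.2 CPM in M1 CM, against 128, 129 and 119 in M0 CM (log2 fold change -0.60 ± 0.04; edgeR adjusted p = 2.45e-17). Cyp51 (log2 fold change -0.56 ± 0.05) and Nsdhl (-0.54 ± 0.05) fell by nearly as much, and Sqle (-0.37 ± 0.04), Msmo1 (-0.27 ± 0.04), Dhcr7 (-0.21 ± 0.06) and Sc5d (-0.15 ± 0.05) by less. Ebp went the other way, with 43.9, 42.2 and 40.6 CPM in M1 CM, against 35.2, 35.2 and 36.5 in M0 CM, and was called higher (log2 fold change 0.25 ± 0.06; edgeR adjusted p = 0.000479). Its libraries did not overlap between these media. Hsd17b7 (-0.05 ± 0.06) and Tm7sf2 (0.13 ± 0.17) were not called.

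In the control group, Insig1 had 90.8, 86.4 and 94.9 CPM in M1 CM, against 143, 154 and 144 in M0 CM (log2 fold change -0.70 ± 0.04; edgeR adjusted p = 6.27e-20). Srebf1 had 128, 119.6 and 123 CPM in M1 CM, against 171, 176 and 181 in M0 CM (log2 fold change -0.51 ± 0.04). Srebf2 (-0.13 ± 0.03) and Scap (-0.19 ± 0.04) were lower by small amounts, with libraries that did not overlap, and Insig2 (0.04 ± 0.05) was not called. Of the transport genes, Stard4 (-0.54 ± 0.04) and Tmem97 (-0.49 ± 0.05) fell while the other 3 rose. Npc2 had 404, 417 and 381 CPM in M1 CM, against 176, 171 and 172 in M0 CM, a 2.31-fold rise (log2 fold change 1.21 ± 0.04; edgeR adjusted p = 3e-33). Soat1 had 149.8, 157 and 156 CPM in M1 CM, against 77.7, 77.7 and 78.6 in M0 CM (log2 fold change 0.98 ± 0.04), and Npc1 had 57.8, 60.4 and 61.0 CPM in M1 CM, against 36.7, 40.4 and 36.6 in M0 CM (log2 fold change 0.66 ± 0.05).

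In M1 CM 2 of the 4 tested LXR genes were called higher and 0 lower (27.7% and 25.6% of all genes). With 4 genes these counts are not set apart from those shares. Nr1h2 had 106, 99.2 and 104 CPM in M1 CM, against 76.4, 78.2 and 81.8 in M0 CM (log2 fold change 0.39 ± 0.04; edgeR adjusted p = 9.6e-11). Abcg1, near the limit of measurement, had 33 to 57 counts a library in M1 CM and 5 to 14 in M0 CM (log2 fold change 2.16 ± 0.36, SE; edgeR adjusted p = 1.48e-06). Abca1 (0.06 ± 0.21) and Mylip (0.22 ± 0.10, edgeR adjusted p = 0.0516) were not called, and Mylip passed the threshold without the second M1 CM library (log2 fold change 0.31, adjusted p = 0.00796). It also passed without the second M2 CM library (adjusted p = 0.0481) or the first TAM CM library (adjusted p = 0.0437). Macrophages express Abcg1, Npc2 and Soat1, and the summed macrophage markers were 34.9 to 40.9 CPM in M1 CM and 23.4 to 24.6 CPM in M0 CM. Of the 15 markers, 5 were at 0 in each of these media, among them C1qa, C1qb, C1qc and Tyrobp, and 11 in M1 CM and 13 in M0 CM were under 1 CPM. Their part in these rises was not tested.

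TAM CM was then set against M1 CM directly, which does not use the M0 CM level. Of the 32 genes, 3 were higher and 28 lower in TAM CM (32.8% and 34.4% of all genes), with a median log2 fold change of -1.32, so the falls in TAM CM exceeded those in M1 CM by more than the spread of the libraries. All 18 enzymes were lower, from -2.59 for Acat2 to -0.78 for Msmo1. Insig1 (-1.85 ± 0.05), Srebf1 (-1.27 ± 0.04) and Srebf2 (-1.38 ± 0.03) were lower too, and Scap was slightly higher (0.13 ± 0.04; edgeR adjusted p = 0.00649). Soat1 (0.53 ± 0.03) and Npc1 (0.36 ± 0.05) were higher in TAM CM than in M1 CM. Npc2 was the opposite case, 2.58-fold lower in TAM CM than in M1 CM (log2 fold change -1.37 ± 0.04; edgeR adjusted p = 1.86e-35). Abcg1 (-2.74 ± 0.40), Nr1h2 (-0.42 ± 0.04) and Mylip (-0.96 ± 0.10) were lower in TAM CM as well.

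M2 CM against M0 CM, the IL-4 arm, showed changes of at most 1.81-fold in either direction, and its 6 higher and 9 lower calls were 18.8% and 28.1% of the 32 genes. Of the 15 calls, 10 held under every alternative run. The early enzymes parted, with Idi1 higher at 117, 128 and 124 CPM in M2 CM, against 93.8, 97.2 and 91.2 in M0 CM (log2 fold change 0.39 ± 0.05; edgeR adjusted p = 1.27e-07). Mvk was lower at 44.9, 45.2 and 44.2 CPM in M2 CM, against 49.6, 54.8 and 53.3 in M0 CM (log2 fold change -0.23 ± 0.06; edgeR adjusted p = 0.000622). Hmgcs1 was not called, at 218, 228 and 219 CPM in M2 CM, against 236, 232 and 227 in M0 CM. Acat2 was spread over 144, 179 and 138 CPM in M2 CM, against 153, 158 and 149.9 in M0 CM, and was called lower only when the second M2 CM library was left out (log2 fold change -0.13; edgeR adjusted p = 0.0154).

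Among the other calls in M2 CM that held, Hsd17b7 (0.23 ± 0.06), Tmem97 (0.26 ± 0.05) and Npc1 (0.22 ± 0.05) were higher. Insig1 had 114, 116 and 121 CPM in M2 CM, against 143, 154 and 144 in M0 CM (log2 fold change -0.33 ± 0.04; edgeR adjusted p = 4.38e-09), and Insig2 had 39.8, 40.7 and 38.4 CPM in M2 CM, against 49.5, 51.0 and 48.6 in M0 CM (log2 fold change -0.33 ± 0.05). Srebf1 had 143, 148 and 149.6 CPM in M2 CM, against 171, 176 and 181 in M0 CM (log2 fold change -0.26 ± 0.04), while Srebf2 was not called (0.03 ± 0.03). Nr1h2 (-0.18 ± 0.05) was also lower. Abca1 was lower at 1.72, 2.06 and 1.33 CPM in M2 CM, against 3.06, 3.73 and 2.46 in M0 CM (log2 fold change -0.86 ± 0.23; edgeR adjusted p = 0.00179).

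The calls of Fdps, Tm7sf2, Msmo1, Ebp and Dhcr7 in M2 CM, at edgeR adjusted p-values from 0.00842 (Ebp) to 0.0339 (Tm7sf2), ended under some alternatives, with no change of direction. Fdps (log2 fold change -0.35) lost its call without the second M0 CM library (-0.30, adjusted p = 0.0756) or the first M2 CM library (-0.30, 0.0706), and Tm7sf2 (-0.45) without the second (-0.43, adjusted p = 0.0862) or the third (-0.42, 0.0955) M0 CM library or the first M2 CM library (-0.33, 0.186). Tm7sf2 was also not called by DESeq2 (-0.46, adjusted p = 0.0889) or with no filter on low counts (-0.46, edgeR adjusted p = 0.0535). Msmo1 (0.12) lost its call without the third library of M0 CM (0.09, 0.0985) or of M2 CM (0.09, 0.0939), and Ebp, at 38.2, 44.2 and 39.8 CPM in M2 CM, against 35.2, 35.2 and 36.5 in M0 CM, without the second M2 CM library (0.13, adjusted p = 0.134). With library sizes in place of TMM scaling, Msmo1 (0.06, adjusted p = 0.189) and Ebp (0.14, adjusted p = 0.0664) were not called either. Dhcr7 had 46.6, 43.4 and 42.6 CPM in M2 CM, against 50.6, 47.0 and 49.5 in M0 CM, a log2 fold change of -0.15 ± 0.06. Its log2 fold change stayed between -0.15 and -0.13 where its call ended, which was without the first (adjusted p = 0.125) or the third (0.0665) M0 CM library, without the second (0.0803) or the third (0.111) M2 CM library, and with all libraries in DESeq2 (0.0681). Conversely, genes not called with all libraries were called when a library was left out. Lss passed without the third M0 CM (0.0229) or the third M1 CM library (0.0474), Cyp51 without the first M2 CM library (0.018) and Mylip without the third M2 CM library (0.0398). Without the third M2 CM library, the one with the melanoma label, 5 of the 32 genes were called higher and 9 lower, with a median of -0.04. With library sizes in place of TMM scaling, 4 were higher and 14 lower.

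M2 CM against M1 CM set the media of the polarised macrophages against each other. M2 CM had 19 of the 32 above M1 CM and 9 below it (27.8% and 28.4% of all genes), with a median log2 fold change of 0.21. Of the 18 enzymes 13 were higher and 1, Tm7sf2, lower (-0.58 ± 0.17). Idi1 differed most among them, 2.14-fold higher in M2 CM (log2 fold change 1.10 ± 0.05; edgeR adjusted p = 1.22e-18). Sc5d was called (0.13 ± 0.05) although its libraries overlapped, at 80.8, 87.4 and 90.5 CPM in M2 CM, against 76.4, 78.0 and 81.4 in M1 CM. Stard4 (0.57 ± 0.04) and Tmem97 (0.76 ± 0.05) were higher in M2 CM, and Npc2 (-1.17 ± 0.04), Soat1 (-0.90 ± 0.04) and Npc1 (-0.44 ± 0.05) lower. All 4 tested LXR genes were lower, from -2.02 for Abcg1 to -0.44 for Mylip.

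TAM CM against M2 CM gave 4 of the 32 genes higher and 25 lower (34.3% and 34.1% of all genes), with a median of -1.53. All 18 enzymes were lower in TAM CM, 10.3-fold for Idi1 and 2.05-fold for Dhcr7 at the ends of the range. Insig1 (-2.22 ± 0.05), Srebf2 (-1.54 ± 0.03) and Srebf1 (-1.52 ± 0.04) were lower, and Insig2 was not called (-0.10 ± 0.06; edgeR adjusted p = 0.0935). Soat1 (1.42 ± 0.04), Npc1 (0.80 ± 0.05), Nr1h2 (0.15 ± 0.05) and Abca1 (0.61 ± 0.23) were higher. Counted over the direct tests, 25 of the 32 genes were lower in TAM CM than in each of the other 3 media. Over all tested genes, 34.9% were lower in TAM CM than in M0 CM, 34.4% than in M1 CM and 34.1% than in M2 CM. The share of all genes lower in all 3 was not counted. These comparisons also share the TAM CM libraries, so the 25 is not read as a result.

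Levels of different genes were compared as CPM per kilobase of exon. In every medium Srebf2 stood first of the 33, at 33.6 ± 0.545 CPM per kilobase in TAM CM, 97.4 ± 3.06 in M2 CM, 87.2 ± 2.61 in M1 CM and 95.2 ± 2.47 in M0 CM. Soat1 ranked 4 in TAM CM, 25 in M2 CM, 20 in M1 CM and 26 in M0 CM. Npc2 ranked 2 in TAM CM, 10 in M2 CM, 2 in M1 CM and 9 in M0 CM. Hmgcs1 stood at 7.08 ± 0.176 CPM per kilobase in TAM CM (rank 16) and 50.4 ± 0.963 in M0 CM (rank 6), and Acat2 at 6.25 ± 0.613 in TAM CM (rank 18) and 60.5 ± 1.66 in M0 CM (rank 3). Neighbours in these orders are often closer than their spread. In TAM CM, Nr1h2 (22.9 ± 0.999), Soat1 (22.7 ± 0.498) and Sqle (22.5 ± 0.226) could not be ranked against each other. Abcg1 stood last in TAM CM, at 0.0419 ± 0.0157 CPM per kilobase, and in M0 CM, at 0.0609 ± 0.0251. Some levels carry a further uncertainty from shared exon bases. Tm7sf2 shares 12.1% of them with Vps51, Hmgcs1 12.1% with Gm48342, Scap 13.2% with 5830462I19Rik and Cyp51 3.76% with Akap9. Idi1 shares 9.22% with Gm48574, Lss 3.53% with 4930483K19Rik and Nr1h3 1.35% with Gm13783. Srebf1 shares 1.93% with Rai1 and 1.17% with Mir6922, and Npc1 also shares 0.795% with Gm15956. Nr1h2 has a pseudogene copy, Nr1h2-ps.

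Other genes of the same biology were read from 7 lists, and up to 3 genes with the smallest p are named from each. Their counts stand beside 35.1% of all tested genes higher and 34.9% lower in TAM CM, 21% and 18.5% in M2 CM, and 27.7% and 25.6% in M1 CM, each against M0 CM. Of 10 genes for other steps and helpers of the pathway, 9 were lower in TAM CM than in M0 CM and none was called higher. The mitochondrial thiolase Acat1 averaged 35 ± 0.368 CPM in TAM CM and 129 ± 5.73 in M0 CM (log2 fold change -1.88 ± 0.05), and Acly, which supplies cytosolic acetyl-CoA, averaged 231 ± 12.4 CPM in TAM CM and 429 ± 6.39 in M0 CM (-0.90 ± 0.04). The cytochrome b5 reductase Cyb5r3 was lower as well (-0.75 ± 0.03). Of the same 10 genes, M2 CM had 3 higher and 0 lower, and M1 CM had 0 higher and 9 lower. Of 14 genes of the isoprenoid branches, which draw on farnesyl diphosphate for prenylation, dolichol and ubiquinone, 8 were higher and 1, the prenyltransferase subunit Fnta (-0.58 ± 0.04), lower in TAM CM. Rabggta rose in TAM CM (0.58 ± 0.06) and Rabggtb in M2 CM (0.37 ± 0.04), both subunits of the enzyme that prenylates Rab proteins. Of these 14 genes, M2 CM had 3 higher and 1 lower, and M1 CM 5 higher and 1 lower.

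Of 12 tested genes of the machinery that processes SREBP and degrades sterol-regulated proteins, 8 were higher and 3 lower in TAM CM (35.1% and 34.9% of all genes), 2 higher and 0 lower in M2 CM (21% and 18.5%), and 4 higher and 4 lower in M1 CM (27.7% and 25.6%). The shares lower in TAM CM and in either direction in M1 CM were near those of all genes. Erlin1, which restrains SREBP in the endoplasmic reticulum, averaged 310 ± 1.81 CPM in TAM CM and 107 ± 2.96 in M0 CM (1.54 ± 0.04), and Ube2g2, a ubiquitin-conjugating enzyme of that membrane, 174 ± 7.92 in TAM CM and 65.8 ± 3.09 in M0 CM (1.41 ± 0.04). The ubiquitin ligase Rnf145 averaged 146 ± 3.66 CPM in TAM CM and 284 ± 10.5 in M0 CM (-0.96 ± 0.04). All 5 tested lipoprotein uptake genes were lower in TAM CM, among them the receptors Lrp1 (-0.71 ± 0.03) and Scarb1 (-0.83 ± 0.05) and the chaperone Lrpap1 (-0.59 ± 0.06). M2 CM had 1 of them higher and 2 lower, and M1 CM 0 higher and 4 lower.

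Of 18 further genes of sterol transport and esters, 11 were higher and 7 lower in TAM CM (35.1% and 34.9% of all genes), 3 higher and 4 lower in M2 CM (21% and 18.5%), and 12 higher and 5 lower in M1 CM (27.7% and 25.6%). The shares lower in TAM CM and M1 CM and in either direction in M2 CM were near those of all genes. Stard5, a sterol carrier, averaged 84.9 ± 5.05 CPM in TAM CM and 6.51 ± 0.814 in M0 CM (3.70 ± 0.08), the oxysterol-binding protein Osbpl9 rose (0.95 ± 0.04), and the mitochondrial outer-membrane protein Tspo fell (-1.01 ± 0.04). Of 10 tested genes of oxysterols and LXR partners, 2 were higher and 5 lower in TAM CM, 1 higher and 4 lower in M2 CM, and 4 higher and 2 lower in M1 CM, counts that with 10 genes are not set apart from the shares of all genes. The sterol hydroxylase Cyp27a1 averaged 24.4 ± 0.219 CPM in TAM CM and 5.83 ± 0.273 in M0 CM (2.06 ± 0.10), and the LXR target Arl4c fell (-1.02 ± 0.04). Of 13 fatty acid genes linked to SREBP, 2 were higher and 11 lower in TAM CM with a median of -1.32, 2 higher and 3 lower in M2 CM, and 1 higher and 10 lower in M1 CM. The desaturases Fads2 (35 ± 2.08 CPM in TAM CM and 195 ± 7.53 in M0 CM, -2.48 ± 0.04) and Scd1 (-1.32 ± 0.03) and the elongase Elovl6 (-2.28 ± 0.04) fell in TAM CM.

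**Figure D4:**
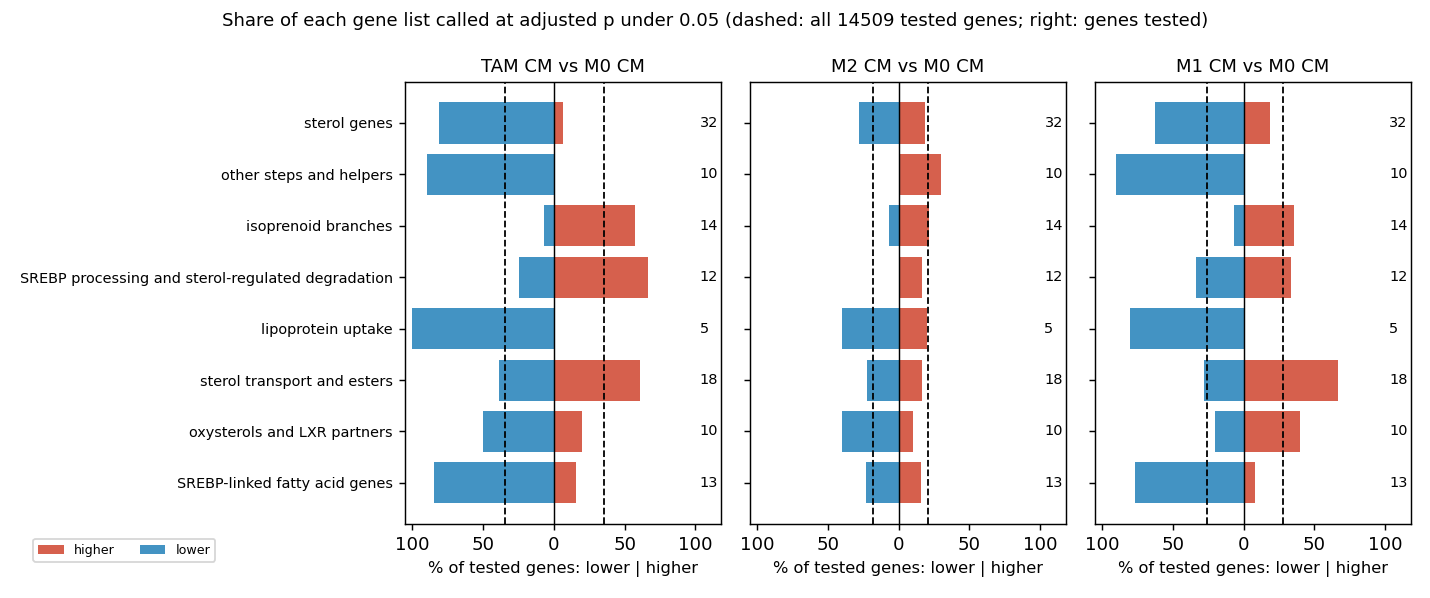
Percent of tested genes called higher (right of 0) and lower (left of 0) at an adjusted p under 0.05 for the 32 tested sterol genes (top bar) and the 7 further lists, with 1 panel each for TAM CM, M2 CM and M1 CM against M0 CM; dashed lines are the shares over all 14509 tested genes and the number at the right of each bar is the number of genes tested. The lower share of the sterol genes passes its dashed line in every panel, at 81.2% in TAM CM, 62.5% in M1 CM and 28.1% in M2 CM. The fatty acid genes and other pathway steps show the same side in TAM CM and M1 CM.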

How the data were processed

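Whole-transcriptome RNA was sequenced from 12 SCC7 libraries, 3 for each conditioned medium, from Trizol-extracted RNA and Illumina mRNA libraries, per the labels. The authors deposited raw read counts per Ensembl gene with no scaling. The submitters' processing notes name HISAT2 2.0 and mm10, with no role given. For the counting tool, annotation release and strand setting: not given in the sources used here. Symbols, exon lengths and gene coordinates came from GENCODE M21 (GRCm38), which may differ from the release the authors used, and matched 55227 of 55487 identifiers. Promoter windows came from RefSeq (GRCm38.p6).

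Libraries were grouped by their titles. The count table was fitted with edgeR 4.0.16 (R 4.3.3): filterByExpr kept 14509 genes (the rest held 0.0815% of counts), followed by TMM scaling and a robust glmQLFit of all 4 media in 1 model, with 6 comparisons and Benjamini-Hochberg adjustment over all tested genes, called at 0.05. Standard errors are those of the log2 fold change, from its quasi-likelihood F. Because no strand setting is given, genes that overlap another are marked as uncertain. Counts are not molecules identified one by one, so precision reflects counting and library spread only. Replicates of a medium had correlations of 0.9924 to 0.9938 and differed by more than counting noise. Deviations of libraries with the same number in different media had correlations from -0.0289 to 0.0507 over 18 pairs. The numbers were therefore not used as pairs in the main fit. Counting noise lowers such correlations, so weak pairing is not excluded.

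The genes and the 7 further lists were chosen with earlier results of these data known. Values in every library were given, in each role, for up to 4 genes with the largest change against M0 CM and at least 2 CPM, for all sterol control genes, and for genes against their role's majority; library counts stand in for CPM where a gene had few. Up to 3 genes a list, those with the smallest p, were named from the other lists. The alternatives were DESeq2 1.42.0, other scalings and filters, fits of 2 media alone, a replicate block and leaving out each library. The edgeR step alone was tested on simulated counts, for M1 CM against M0 CM. It recovered 37 of 50 genes changed 1.3-fold and 50 of 50 changed 4-fold, and called 16 of 13971 unchanged genes. Few genes were changed, equally up and down, so scaling and error rates under changes as broad as in these data were not tested. Some genes of the pathway are not reported here.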

Additional observations from a re-analysis of the deposited data

How the results depend on the processing

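Of 1823 gene results against M0 CM under 19 alternatives, 38 changed their call and 0 changed direction while called. All 28 calls in TAM CM and all 26 in M1 CM held under every alternative, while 10 of the 15 in M2 CM did. With library sizes in place of TMM, under which the median log2 fold change of all genes in TAM CM against M0 CM was -0.095 (0.001 with TMM), the median of the 32 genes was -1.62 for TAM CM against M0 CM, -1.57 for TAM CM against M2 CM, -1.35 for TAM CM against M1 CM, -0.07 for M2 CM against M0 CM (14 lower) and -0.31 for M1 CM against M0 CM. That scaling also called Scap (-0.15) and Nr1h2 (-0.13) lower in TAM CM and Fdft1 (-0.11) lower in M1 CM, each against M0 CM, and over all genes it gave 3219 higher and 4626 lower in M1 CM (4023 and 3719 with TMM) and 2201 and 3653 in M2 CM (3042 and 2681).

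Leaving out each library in turn gave medians of -1.54 to -1.50 for TAM CM against M0 CM, -1.54 to -1.50 against M2 CM and -1.34 to -1.30 against M1 CM. They were 0.19 to 0.26 for M2 CM against M1 CM, -0.26 to -0.22 for M1 CM against M0 CM and -0.05 to 0.01 for M2 CM against M0 CM, the last above 0 without the first M2 CM library. With the replicate number as a block, the counts were the same, at 2 higher and 26 lower in TAM CM, 6 and 9 in M2 CM and 6 and 20 in M1 CM. Of the 12 libraries 8 correlated best with a library of their own number, so weak pairing is not excluded. No same-numbered pair reached the correlation of 0.1 set for treating the numbers as pairs. The precision of Abcg1, Abca1, Nr1h3 and Tm7sf2 is limited by their few counts.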
